A study of Mus musculus with 6 samples.

Results

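Semaphorins, plexins, ephrins, Eph receptors, Slit and Robo proteins, netrins and Unc5 receptors were first known as cues that steer growing axons, and the same proteins steer vessel sprouts and set the borders between vessels. They were taken here as 1 group of genes and followed in mouse lung after 7 days of hypoxia, with and without Nfat5 in endothelial cells. Members were all probe sets whose platform gene symbol began with Sema3 to Sema7, Plxna to Plxnd, Epha, Ephb, Efna or Efnb and a number, or was Robo1 to Robo4, Slit1 to Slit3, Unc5a to Unc5d or Ntn1 to Ntn5. This rule found 66 genes of 24704 tested, each with 1 probe set. Of these, 65 code for proteins and 1, Plxna4os1, is a noncoding RNA. The 66 comprise 20 semaphorins, 10 plexin entries (Plxna4os1 among them), 13 Eph receptors, 8 ephrins, 7 Slit and Robo genes and 8 netrin and Unc5 genes.

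Control mice carried floxed Nfat5 alleles (Nfat5fl/fl) and received the solvent miglyol. The other group, Nfat5(EC)-/-, lost the gene in endothelial cells after intraperitoneal tamoxifen, 1 mg on each of 5 days, so the groups differed in genotype and in tamoxifen together. The series description gives both as adult males and females, which need not hold for the arrays of each group. The mice were 10 to 12 weeks old at induction, rested for 2 to 3 weeks and were then kept in hypoxia for 7 days. Each group gave 3 arrays of whole lung RNA, numbered 1, 3 and 4, while the series design names 4 mice per group and says that some preparations were left out for foreign tissue or a weak expression response to hypoxia. The sources used here do not name the promoter that drove recombination. Nor is it stated that each array was 1 mouse, so p-values measure the spread between these arrays.

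Semaphorins are ligands of plexins. Class 3 semaphorins are secreted and most of them bind neuropilins, which pair with plexins, whereas classes 4 to 7 are held at the membrane. Ephrins are membrane ligands of the Eph receptor kinases, with A-class ephrins anchored by a lipid and B-class ephrins crossing the membrane. Slits are secreted ligands of Robo receptors, and netrins bind Unc5 receptors, Dcc and neogenin. In vessels, ephrin-B2 marks arteries and EphB4 veins, Sema3e repels sprouts through plexin D1, and Unc5b and Robo4 are found on endothelial cells.

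All values are log2 levels as the authors deposited them, and a difference of 1 is a doubling. Every array had the same median of 2.98 and lower quartile of 2.02. Precision is limited by the number of arrays. Nfat5 was lower in the knockout lungs, at 6.65, 6.58 and 6.30 in controls against 4.46, 4.48 and 3.89 in knockouts (replicates 1, 3 and 4 in this order here and below), with a log2 fold change of −2.23 ± 0.23 (SE; limma, adjusted p = 0.00151). Whether its probes lie in the deleted part is not known. The whole table shifted widely: 25.5% of genes passed an adjusted p of 0.05, and the median level of 106 snoRNAs lay between 4.01 and 4.20 on control arrays and between 6.43 and 7.43 on knockout arrays. Control replicate 1 alone had high Xist. Levels were 8.22, 2.36 and 2.37 on the controls and 2.23, 2.28 and 2.03 on the knockouts, in the same order. By this gene only control replicate 1 looks female and no knockout array does, so the sexes do not appear balanced. Lung markers were present, with Sftpc, a surfactant gene, at 12.20 ± 0.06 in controls and 11.76 ± 0.49 in knockouts (mean ± SD of 3 arrays). The mean level of 7 nerve and Schwann cell markers lay between the arrays' lower quartile and median, at 2.35 to 2.49 in controls and 2.66 to 2.86 in knockouts. Their median log2 fold change was 0.42, with 1 higher (Mbp) and 0 lower by limma. Pan-endothelial markers split, with 5 of 15 higher and 6 lower, and a mean level of 6.88 to 7.08 in controls and 6.62 to 6.95 in knockouts. The part of cell numbers in the results below was not tested, since in whole lung fewer cells of a type and less RNA per cell cannot be told apart.

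Guidance genes moved in both directions. Of the 66, 20 rose and 11 fell in the knockout (limma, adjusted p under 0.05 over all 24704 genes), or 30.3% and 16.7% of the group, where 12.5% of all genes rose and 13% fell. At 14 of the 20 rises and 8 of the 11 falls the change exceeded 2-fold. Members were brighter than most genes, with 49 of the 66 above the median of mean level, and brighter genes passed more often. Of the 12352 genes above that median, fitted alone, 5788 passed, and of the 49 members among them 20 rose and 12 fell. The median log2 fold change of the 66 members was 0.32, against 0.04 for all genes tested. Knockout arrays lay wholly above the controls at 27 members and wholly below at 17, where the background was 21.9% and 20% of genes. The 2 groups were thus apart at 44 members, where they were apart at 41.9% of all genes. All 31 members that passed were among those 44, with adjusted p from 0.0019 to 0.0469. The other 35 members ran from −0.93 (Slit2) to 0.92 (Unc5a), 19 above 0 and 16 below. Ligands rose at 12 of 35 and fell at 6, and receptors rose at 8 of 30 and fell at 5.

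**Figure D1:**
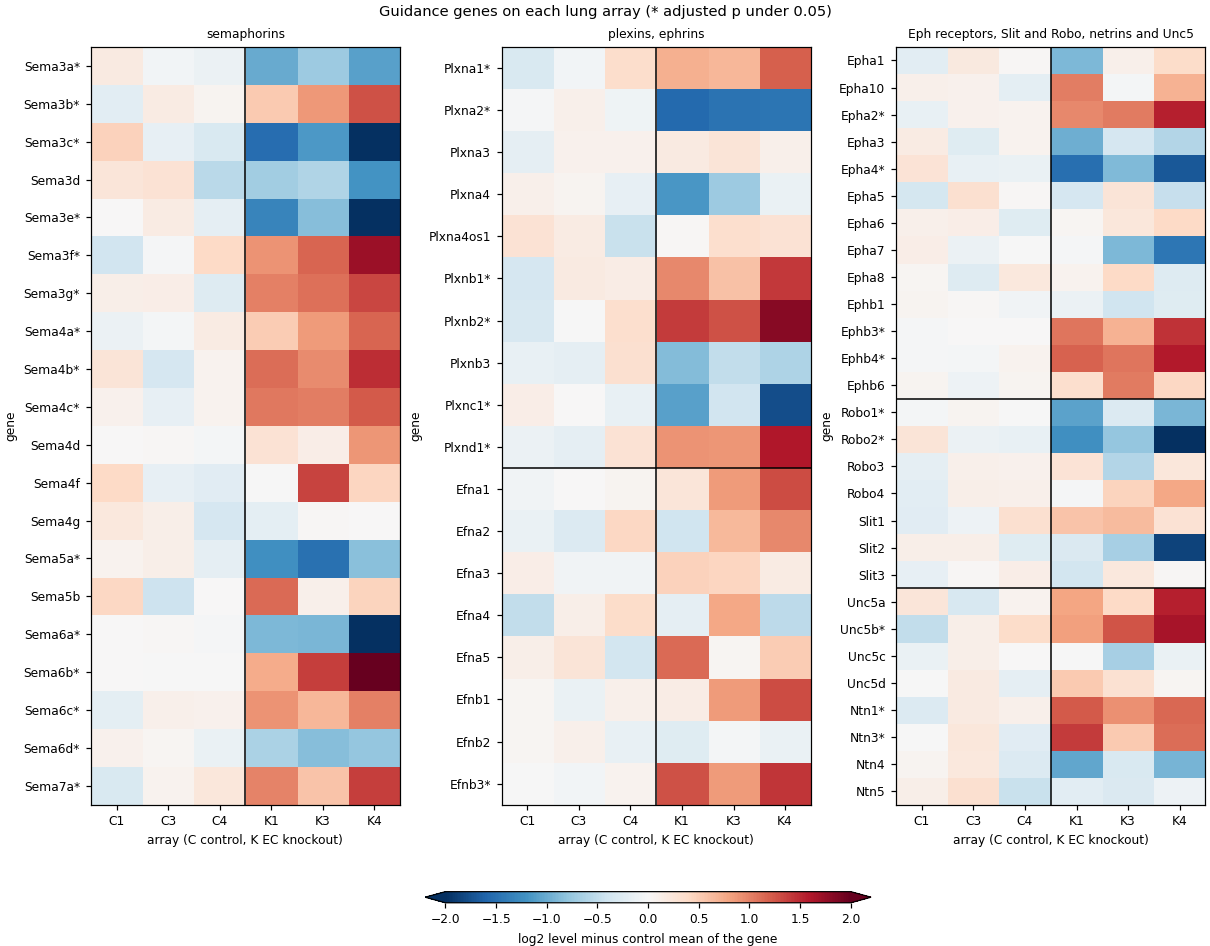
Level of each of the 66 guidance genes on each array, as the log2 level minus the mean of the 3 control arrays, with controls (C) left and knockouts (K) right of the line. Of these genes 20 were higher and 11 lower at an adjusted p under 0.05 (asterisks), and knockout replicate 4 (K4) has the strongest colour at 25 of those 31.

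The knockout arrays were not alike in how far they moved. This was counted over members only, so whether it held for all called genes is not shown. Among the 31 members that passed, knockout replicate 4 lay farthest from the controls at 25, replicate 1 at 4 and replicate 3 at 2, while replicate 3 lay nearest to them at 20. The order of the snoRNA level was another one, at 7.43, 6.49 and 6.43 on knockout replicates 1, 3 and 4. Its part in the result was not tested.

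Leaving out single arrays moved a share of the calls over the threshold. Without control replicate 1 the members higher numbered 9 and those lower 6, and without control replicate 3 they numbered 10 and 6. Leaving out control replicate 4 gave 17 and 9, and leaving out a knockout array gave 15 to 22 and 10 to 13. Calls over all genes dropped too, from 6292 to 3141 without control replicate 1 and 2882 without control replicate 3. They numbered 4457 without control replicate 4 and 5686 to 6155 without a knockout array. At 12 members the call held with each array left out in turn and under each other setting tried at the threshold of 0.05: Sema3c, Sema3g, Sema4b, Sema4c, Sema5a, Plxna2, Plxnb2, Epha2, Epha4, Ephb4, Efnb3 and Ntn1. None of the 31 changed sign under those settings. Ntn3, Plxna1, Plxnb1, Plxnc1, Plxnd1, Robo1, Robo2, Sema3b, Sema3f, Sema4a, Sema6a, Sema6b, Sema6d, Sema7a and Unc5b lost their calls without control replicate 1 (adjusted p 0.0527 to 0.124) and also without control replicate 3 (0.0509 to 0.144). Sema6c did so without control replicate 1. Ntn3, Plxnb1, Plxnc1, Robo1, Sema3b and Sema6a did so without control replicate 4 (0.0516 to 0.113). Without knockout replicate 4 the calls of Plxna1, Plxnb1, Plxnc1, Robo1, Sema3b, Sema4a and Sema7a were lost (0.0539 to 0.105), and without knockout replicate 1 those of Plxnc1 and Robo1 (0.0636 to 0.106). At the calls lost, the log2 fold change kept 80.3% to 103% of its size when the array left out was control 1, 92.1% to 111% when it was control 3 and 88.6% to 108% when it was control 4. With knockout 4 left out it kept 68.3% to 89.1%, and with knockout 1 left out 78.8% to 99.7%. Ephb3, Sema3a and Sema3e kept theirs with any 1 array left out but not with Xist as a covariate (adjusted p = 0.051, 0.0558 and 0.0504), at log2 fold changes of 1.05, −0.84 and −1.37.

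Of 20 semaphorins 9 rose and 6 fell, where 12.5% of all genes rose and 13% fell. The secreted class 3 split evenly. Of 7, 3 fell (Sema3a, Sema3c and Sema3e), 3 rose (Sema3b, Sema3f and Sema3g) and Sema3d did not pass (−0.83 ± 0.28, adjusted p = 0.0561). Sema3c (chr5:17574816-17730268, GRCm38.p6), a cue in the patterning of the outflow tract and lung, had the largest fall of all members. Its log2 level was 9.01, 8.38 and 8.24 in controls against 7.01, 7.39 and 6.49 in knockouts. No knockout array reached the lowest control, and replicate 4 was the lowest. The log2 fold change was −1.58 ± 0.29 (SE, n = 3 per group; limma, adjusted p = 0.0061), a 2.98-fold fall.

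Sema3e (chr5:14025276-14256689), the repellent ligand of plexin D1, stood at 6.99, 7.14 and 6.80 in controls and 5.66, 6.13 and 4.97 in knockouts. The groups did not overlap, and knockout replicate 4 was again the lowest. Sema3e changed by −1.39 ± 0.29 (adjusted p = 0.00965), and Sema3a, the founding member that collapses growth cones through neuropilin 1, by −0.94 ± 0.20 (adjusted p = 0.00955).

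On the rising side, Sema3f (chr9:107681499-107710475), which acts through neuropilin 2 and restrains vessel growth, went from 6.07, 6.43 and 6.84 to 7.34, 7.62 and 8.16. Its lowest knockout value stood 0.496 above its highest control value. The log2 fold change was 1.26 ± 0.28 (adjusted p = 0.0122). Sema3g (chr14:31217873-31230352), made by arterial endothelium, went from 4.83, 4.84 and 4.46 to 5.71, 5.81 and 6.05. These knockout arrays lay close together, and the change was 1.15 ± 0.20 (adjusted p = 0.00518). Sema3b, a ligand studied as a tumour suppressor, rose by 0.89 ± 0.24 (adjusted p = 0.0249).

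The membrane-bound semaphorins also went both ways. In class 4, Sema4a, Sema4b and Sema4c rose, and Sema4d, Sema4f and Sema4g did not pass. Sema4b (chr7:80186870-80226646) stood at 3.89, 3.30 and 3.70 in controls and 4.75, 4.57 and 5.11 in knockouts, and every knockout array exceeded every control. It rose by 1.18 ± 0.23 and Sema4c, a ligand of plexin B2, by 1.10 ± 0.19 (adjusted p = 0.00788 and 0.0044). Sema4a, which acts on immune cells and on vessels through plexin D1, rose by 0.84 ± 0.22 (adjusted p = 0.0232). Sema4d, the plexin B1 ligand CD100, stood at 0.44 ± 0.23 (adjusted p = 0.207). Its groups did not overlap, as at 41.9% of all genes. Sema4g had a mean below the lower quartile of 2.02 in both groups, with 2 of 3 control arrays above it, so a change in it could have been missed.

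All 4 class 6 members passed, in opposite directions, where 25.5% of all genes passed. Sema6b (chr17:56123085-56140343) went from 3.46, 3.43 and 3.44 to 4.19, 4.83 and 5.59, nearly constant among controls and widely spread among knockouts. Its log2 fold change of 1.43 ± 0.32 was the largest rise among semaphorins (adjusted p = 0.0129). Sema6a (chr18:47245254-47371200) showed the mirror image, from 6.50, 6.51 and 6.47 to 5.59, 5.58 and 4.41, or −1.30 ± 0.31 (adjusted p = 0.0169). Sema6a is a ligand of plexins A2 and A4 that is also made by endothelial cells. Sema6c rose by 0.85 ± 0.20 and Sema6d, a plexin A1 ligand of the developing heart, fell, at −0.75 ± 0.18 (adjusted p = 0.0142 and 0.0171). Sema5a, which carries thrombospondin repeats, fell, at −1.18 ± 0.22 (adjusted p = 0.00639), while Sema5b stood at 0.56 ± 0.31 (adjusted p = 0.225). Sema7a, the lipid-anchored ligand of plexin C1 and integrins, rose by 0.98 ± 0.25 (adjusted p = 0.0228).

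**Figure D2:**
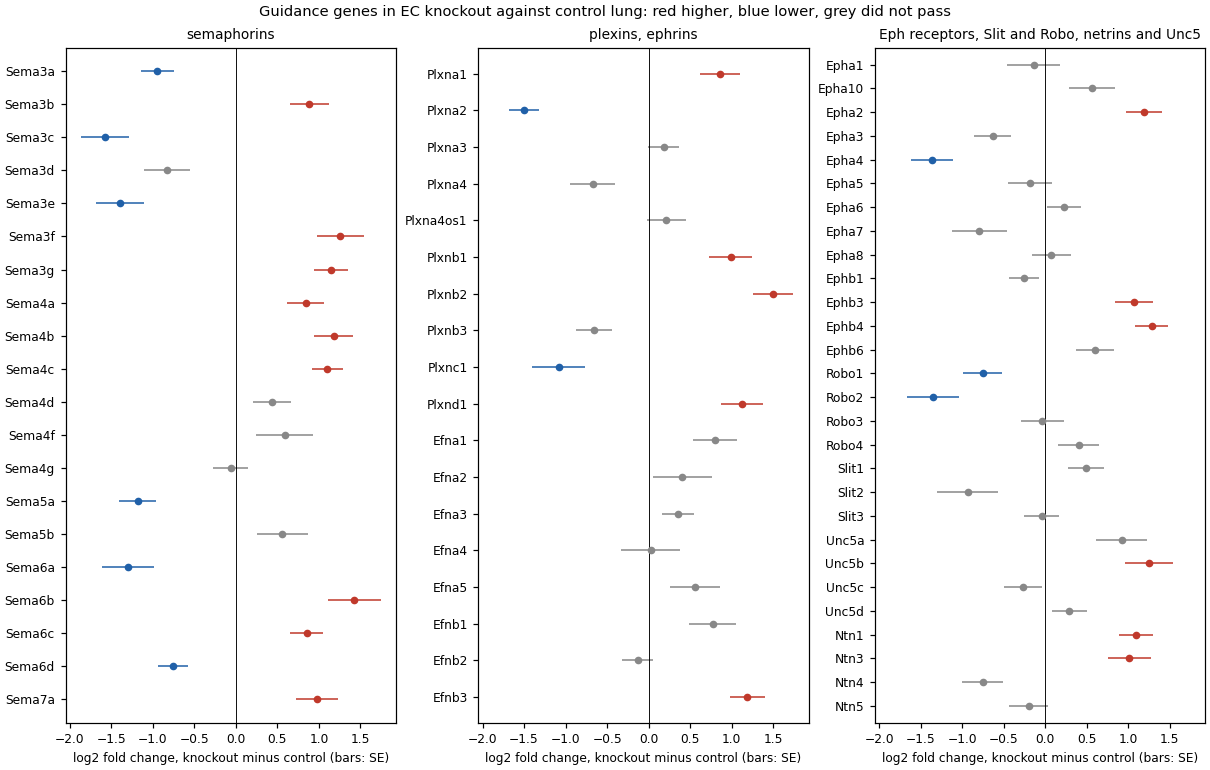
Log2 fold change (knockout minus control) of each guidance gene with its SE from limma, n = 3 arrays per group. Red marks the 20 genes higher, blue the 11 lower and grey the 35 that did not pass; Sema3c at −1.58 and Plxnb2 at 1.50 are the outermost points.

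Plexins are the receptors of semaphorins. Of 10 plexin entries, 1 of them the noncoding Plxna4os1, 4 rose and 2 fell, where 12.5% of all genes rose and 13% fell. Plxnb2 (chr15:89155546-89182018) had the largest rise of all 66 genes. Controls stood at 6.10, 6.40 and 6.74 and knockouts at 7.80, 7.69 and 8.24. The lowest knockout array was 0.948 above the highest control. The log2 fold change was 1.50 ± 0.24 (SE, n = 3 per group; limma, adjusted p = 0.00374), a 2.82-fold rise. Plxnd1 (chr6:115954811-115995339), the plexin of endothelial cells, went from 5.44, 5.38 and 5.85 to 6.46, 6.44 and 7.15 and Plxnb1 (chr9:109093849-109119915), the Sema4d receptor, from 4.35, 4.87 and 4.83 to 5.65, 5.26 and 6.10. Knockouts lay above controls at both genes, with replicate 4 the highest. Plxnd1 rose by 1.13 ± 0.25, Plxnb1 by 0.99 ± 0.26 and Plxna1 by 0.85 ± 0.24 (adjusted p = 0.0126, 0.0239 and 0.0312).

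Plxna2 (chr1:194619791-194816869) fell with the smallest adjusted p of all members. Its levels were 5.13, 5.25 and 5.06 in controls and 3.58, 3.67 and 3.68 in knockouts, tight within each group. The log2 fold change was −1.50 ± 0.18 (adjusted p = 0.0019). Plxnc1 (chr10:94790866-94945015), the Sema7a receptor, went from 4.58, 4.46 and 4.31 to 3.37, 4.06 and 2.69. Its knockout arrays spread over 1.38 log2 units, and the change was −1.08 ± 0.32 (adjusted p = 0.0369). Plxna4 at −0.68 ± 0.27 and Plxnb3 at −0.66 ± 0.22 did not pass (adjusted p = 0.0974 and 0.0529), and Plxnb3 was dim in knockouts, at a mean of 1.90. Plxna3 (0.18 ± 0.18) and Plxna4os1 (0.21 ± 0.24) did not pass either (adjusted p = 0.53 and 0.571).

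Eph receptors rose at 3 of 13 and fell at 1, where 12.5% of all genes rose and 13% fell. Ephb4 (chr5:137350109-137374522), the receptor that marks veins, had control values of 5.32, 5.30 and 5.40 and knockout values of 6.51, 6.41 and 6.93. The controls lay within 0.102 of each other, and the lowest knockout array was 1.01 above them. Ephb4 rose by 1.28 ± 0.20 (SE, n = 3 per group; limma, adjusted p = 0.00367), or 2.43-fold. Of the 5 venous markers listed, Ephb4 was the 1 that rose. Nr2f2, another of them, fell (−0.94 ± 0.20, limma, adjusted p = 0.0109), and 3 did not pass. Epha2 (chr4:141301221-141329384), a receptor of ephrin-A1 on endothelium and epithelium, went from 4.42, 4.65 and 4.64 to 5.54, 5.61 and 6.12. Again the groups were apart, with replicate 4 the highest, and the rise was 1.19 ± 0.22 (adjusted p = 0.00589). Ephb3 (chr16:21204620-21223309) went from 4.23, 4.26 and 4.26 to 5.32, 4.95 and 5.69, a rise of 1.07 ± 0.22 (adjusted p = 0.00986).

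Epha4 (chr1:77367182-77515107), which binds both ephrin classes, was the 1 Eph receptor that fell. It stood at 5.09, 4.67 and 4.69 in controls and 3.31, 3.93 and 3.13 in knockouts, with knockout replicate 3 the highest of its group and still below every control. The change was −1.36 ± 0.25 (adjusted p = 0.00634), a 2.56-fold fall. Epha3 (−0.63 ± 0.23), Ephb1 (−0.25 ± 0.18) and Ephb6 (0.60 ± 0.23) missed the threshold (adjusted p = 0.0707, 0.362 and 0.0897). Their groups did not overlap, which held at 41.9% of all genes, and the gap at Ephb1 was 0.045. Epha5 and Epha6 had means below the lower quartile in both groups.

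Of 8 ephrins 1 rose and 0 fell by limma (3 higher and 0 lower at an unadjusted p under 0.05). Over all genes 12.5% rose and 13% fell by limma. Efnb3 (chr11:69554092-69561150), a B-class ephrin of the nervous system, went from 2.54, 2.50 and 2.63 to 3.83, 3.41 and 3.99. The knockouts were all above the controls, and the rise was 1.19 ± 0.21 (adjusted p = 0.00509). Efnb2 (chr8:8617235-8661242), the arterial ligand of EphB4, stood at 6.12, 6.19 and 5.94 in controls and 5.85, 6.05 and 5.95 in knockouts. These ranges overlapped, at −0.13 ± 0.18 (adjusted p = 0.651). Efnb1 at 0.77 ± 0.29 and the cytokine-responsive Efna1 at 0.80 ± 0.27 did not pass (adjusted p = 0.0806 and 0.0563). Both had knockout arrays above all controls, as had 21.9% of all genes.

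Of the Slit and Robo genes, 2 of 7 fell and 0 rose by limma (3 lower and 1 higher at an unadjusted p under 0.05). The limma shares over all genes were 13% lower and 12.5% higher. Robo2 (chr16:73891976-75447443), a Slit receptor, had control values of 6.27, 5.90 and 5.88 and knockout values of 4.79, 5.25 and 3.96. Every knockout array was below every control. The log2 fold change was −1.35 ± 0.32 (adjusted p = 0.0148). Robo1 (chr16:72027518-73047491), on the same chromosome, went from 4.42, 4.52 and 4.46 to 3.40, 4.20 and 3.55, or −0.75 ± 0.24 (adjusted p = 0.0469). That call was lost under 10 of 18 other settings, left-out arrays among them, the most of the 31. It was lost when any array but knockout replicate 3 was left out (adjusted p 0.105 to 0.144), as was the call of Plxnc1 (0.0636 to 0.124). Slit2, the ligand of Robo1 and Robo2, stood at 6.24, 6.25 and 5.89 in controls against 5.83, 5.46 and 4.29 in knockouts. It did not pass (−0.93 ± 0.36, adjusted p = 0.0931), and its knockout arrays lay below all controls, as at 20% of all genes. Slit3 stood at −0.04 ± 0.21 and Slit1 at 0.50 ± 0.22 (adjusted p = 0.913 and 0.13). Robo4 (chr9:37401902-37414023), the endothelial Robo, was at 4.25, 4.58 and 4.56 in controls and 4.44, 4.92 and 5.25 in knockouts. Its groups overlapped, and it did not pass (0.40 ± 0.24, adjusted p = 0.27).

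Netrins and Unc5 receptors rose at 3 of 8, and 0 fell by limma (4 higher and 1 lower at an unadjusted p under 0.05). Among all genes 12.5% rose and 13% fell by limma. Ntn1 (chr11:68209364-68386826), the netrin that acts on both axons and vessels, went from 5.40, 5.85 and 5.77 to 6.91, 6.59 and 6.82. Its lowest knockout array was 0.739 above its highest control, and it rose by 1.10 ± 0.21 (adjusted p = 0.00644). Unc5b (chr10:60762594-60831581), the netrin receptor of endothelial tip cells, went from 2.40, 3.01 and 3.27 to 3.72, 4.16 and 4.54. Controls differed by 0.864 among themselves, and the rise was 1.24 ± 0.29 (adjusted p = 0.0146). Ntn3 (chr17:24203831-24209387) went from 2.59, 2.82 and 2.36 to 3.98, 3.12 and 3.71, a rise of 1.01 ± 0.26 (adjusted p = 0.0211). Ntn4, a netrin of basement membranes, stood at −0.75 ± 0.25 and Unc5a at 0.92 ± 0.31 (adjusted p = 0.0544 and 0.0551). Neither overlapped between groups, which held at 41.9% of all genes. Unc5c, Unc5d and Ntn5 overlapped, between −0.27 and 0.29.

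Ligands were next set beside their receptors, in 21 textbook pairs that were written down with the values of the members already known. No pair had both sides short of the threshold, since pairs were listed around members that moved, so the counts describe the list only. Ligand and receptor rose or fell together in 6 pairs, went opposite ways in 4, and 1 side alone passed in 11. Opposite changes joined Sema3e (−1.39 ± 0.29) with its receptor Plxnd1 (1.13 ± 0.25), Sema7a (0.98 ± 0.25) with Plxnc1 (−1.08 ± 0.32) and Sema6d (−0.75 ± 0.18) with Plxna1 (0.85 ± 0.24). Ntn1 rose while neogenin (Neo1), a netrin receptor outside the group, fell, at −1.04 ± 0.30. Shared changes joined Sema6a with Plxna2, both lower, and Sema4c with Plxnb2, Sema4a with Plxnd1 and Ntn1 with Unc5b, all higher. Sema3a and Sema3c fell with neuropilin 1 (Nrp1, −1.22 ± 0.39, adjusted p = 0.0479). Nrp1 and Neo1 both lost their calls when any 1 control array was left out (adjusted p 0.0763 to 0.143). Among the members in these pairs, Plxnd1, Sema7a, Plxnc1, Sema6d, Plxna1, Sema4a, Sema6a and Unc5b lost theirs without control replicate 1 and also without control replicate 3. With the length trend removed, Plxnc1 and Sema6d did not pass (limma, adjusted p = 0.106 and 0.103). In the artery and vein pair the receptor Ephb4 rose and the ligand Efnb2 stood at −0.13 ± 0.18.

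**Figure D3:**
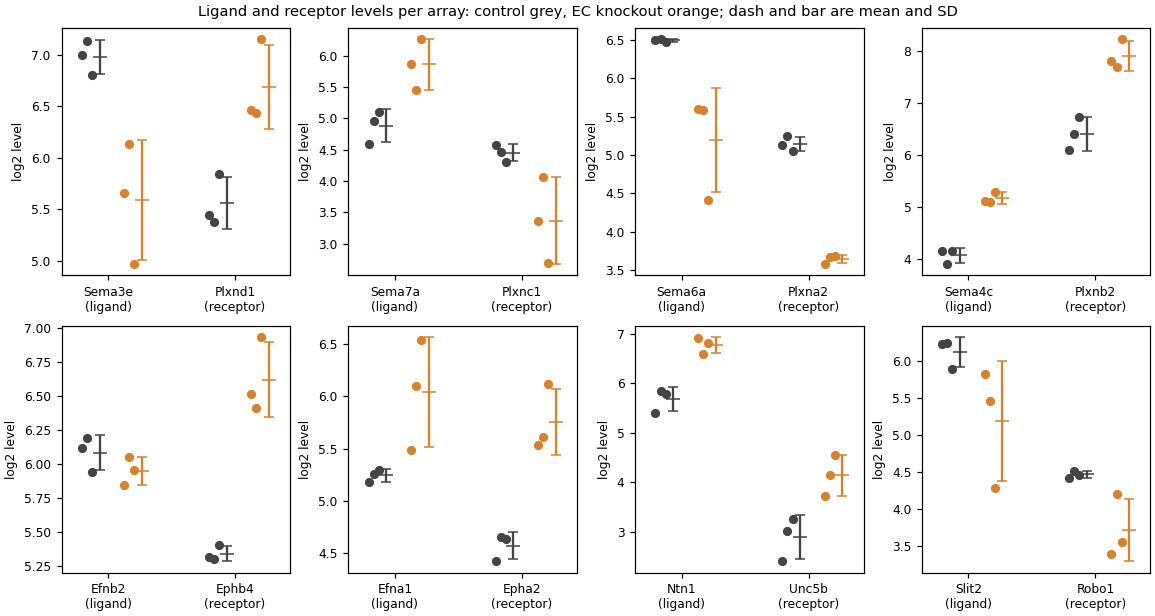
Log2 level of ligand and receptor on each array for 8 pairs, with controls in grey and knockouts in orange; the dash and bar are the mean and SD of 3 arrays. Sema3e falls from a control mean of 6.98 to 5.59 while Plxnd1 goes from 5.56 to 6.68; heights are not to be compared between genes, since probe sets differ in brightness.

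Other genes of these pathways were listed apart from the members, as co-receptors, further ligands and intracellular effectors, 74 in all. Of the 70 measured, 12 rose and 17 fell. The median over all 70 was −0.25 on the log2 scale, where 12.5% and 13% of all genes rose and fell and their median was 0.04. The smallest p-values among rises belonged to Ptk7 (1.51 ± 0.18), a plexin co-receptor and planar polarity protein, Vasp (1.48 ± 0.21), which extends actin filaments, Rgma (1.32 ± 0.19), a neogenin ligand, and Limk1 (1.43 ± 0.21), the kinase that inactivates cofilin (adjusted p 0.0019 to 0.00295). Among falls they belonged to Cdc42 (−1.47 ± 0.20) and Rock1 (−1.76 ± 0.29), a small GTPase and a kinase of the actin cytoskeleton, Pik3r1 (−1.69 ± 0.28) and Arhgef12 (−1.39 ± 0.24), an exchange factor bound by plexin B (adjusted p 0.00238 to 0.00469). Effectors of plexins rose at 6 of 19 and fell at 2, those of Slit, Robo and netrins rose at 1 of 13 and fell at 5, and those of ephrins rose at 1 of 13 and fell at 4. Nrp2 stood at −0.36 ± 0.22 (adjusted p = 0.263) and Dcc, with both group means below the lower quartile, at 0.01 ± 0.22 (adjusted p = 0.981). The fall counts depended on single controls: without control replicate 1, 3 or 4 in turn, 8 partners were lower each time, and 7, 5 and 10 were higher. Over all genes 3141, 2882 and 4457 passed in these fits, against 6292 with every array. With the trend in gene length removed 8 partners were lower.

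Members that rose and members that fell differed in gene length. Gene length is the span on GRCm38.p6 in the RefSeq table, introns included. The 11 that fell ran from 125.9 kb (Sema6a) to 1555 kb (Robo2), with a median of 231.4 kb. Those that rose had a median of 24.8 kb and, with the exception of Ntn1 at 177.5 kb, were no longer than Unc5b at 69.0 kb. With a limit of 100 kb, set after these lengths were seen, 11 of 28 long members fell and 1 rose, while 19 of 37 shorter members rose and 0 fell by limma (23 higher and 1 lower at an unadjusted p under 0.05). Among all protein-coding genes over 100 kb, 31.2% fell and 4.49% rose, and among shorter ones 12.9% fell and 14.4% rose. For long members the shares, 39.3% and 3.57%, were near that background. For shorter members, 51.4% rose.

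Spearman's rank correlation between length and log2 fold change was −0.53 over 65 protein-coding members and −0.32 over 19686 protein-coding genes, a description across genes that share the same 6 arrays. When the average trend with length was taken out of each array, 27 of the 31 calls held in the same direction, and Ntn3, Plxnc1, Robo1 and Sema6d did not (adjusted p 0.0604 to 0.161). Falls became smaller: Sema3c stood at −1.20, Plxna2 at −1.13 and Robo2 at −1.11. Longer rising genes gained, with Ntn1 at 1.47 and Unc5b at 1.56. Some of the shortest rising genes shrank, with Efnb3 at 0.93, Sema3g at 0.98 and Ntn3 at 0.74. After this step 22 members were higher and 9 lower. Among them Sema4d, Slit1 and Unc5a (higher) and Plxnb3 (lower) had not passed in the main comparison. When protein-coding genes were fitted with the trend left in, a setting added after seeing the data, the counts were 22 and 14.

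**Figure D4:**
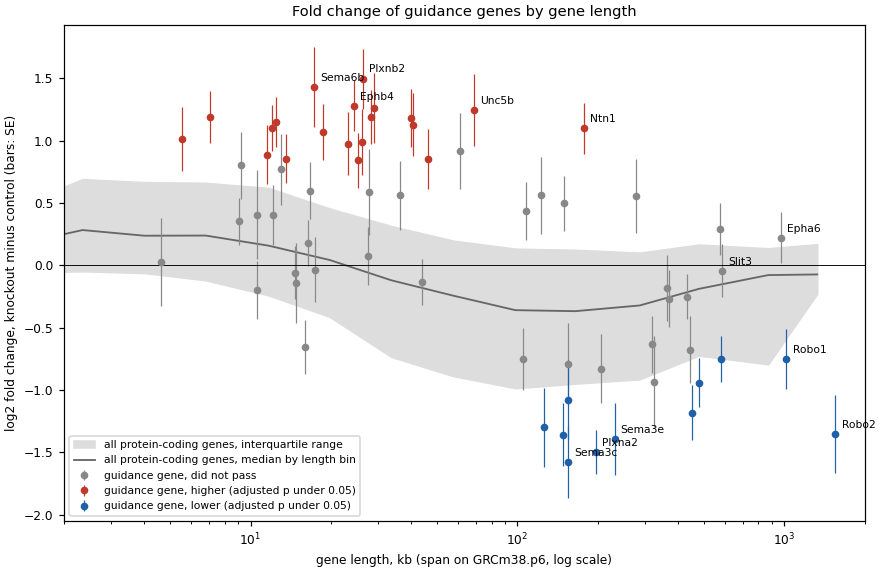
Log2 fold change with SE of the 65 protein-coding guidance genes against gene length in kb on a log axis, over the median (line) and interquartile range (grey band) of all protein-coding genes by length bin. The 11 falling members (blue) lie at 125.9 kb or more, and the rising ones (red) at 69.0 kb or less save Ntn1 at 177.5 kb.

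Promoter sequence is a feature that the choice of members did not use. The RefSeq promoter table for GRCm38.p6 held 72 windows for 56 of the 66 genes, and the 250 bases before the start site were read from each. The core of the TonE element that NFAT5 binds, TGGAAA on either strand, was in 8 of 72 guidance windows (11.1%) and in 18.6% of all 32851 windows. The longer TonE consensus, which contains that core, was in 4 (5.56%) against 4.31% of all. By direction, the core was in 4 of 13 windows of members that fell, 2 of 23 of those that rose and 2 of 36 of the rest. ACGTG and GCGTG, the cores of the hypoxia response element, were in 16.7% and 31.9% of guidance windows against 16.6% and 28.2% of all, on either strand. A match is a run of letters and not a bound site. Guidance windows were rich in G and C, at a median of 64.2% against 52.4%, with 64.4% in members that rose and 56% in those that fell.

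The windows of the opposed pair Sema3e and Plxnd1 and of the receptors Robo1 (lower) and Unc5b (higher) are printed to show what the core looks like in members of both directions. They run 5′ to 3′ on the gene's strand and end at the base before an annotated start site, with each TGGAAA match in capitals. For Sema3e and Unc5b that site is the start of the gene span given above. For Plxnd1 it lies 0.334 kb inside the span and for Robo1 635.6 kb inside it, at another start site than the outermost.
Sema3e, chr5:14025026-14025275, plus strand: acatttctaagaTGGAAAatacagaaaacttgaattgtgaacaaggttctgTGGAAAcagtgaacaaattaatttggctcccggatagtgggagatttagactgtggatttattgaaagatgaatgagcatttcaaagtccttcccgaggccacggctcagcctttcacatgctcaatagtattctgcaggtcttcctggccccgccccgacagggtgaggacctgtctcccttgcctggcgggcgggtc
Plxnd1, chr6:115995006-115995255, minus strand: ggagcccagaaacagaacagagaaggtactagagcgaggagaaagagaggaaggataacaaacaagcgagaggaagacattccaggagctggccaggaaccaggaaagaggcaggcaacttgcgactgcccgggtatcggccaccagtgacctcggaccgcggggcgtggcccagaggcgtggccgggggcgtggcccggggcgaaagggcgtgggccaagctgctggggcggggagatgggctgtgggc
Robo1, chr16:72662899-72663148, plus strand: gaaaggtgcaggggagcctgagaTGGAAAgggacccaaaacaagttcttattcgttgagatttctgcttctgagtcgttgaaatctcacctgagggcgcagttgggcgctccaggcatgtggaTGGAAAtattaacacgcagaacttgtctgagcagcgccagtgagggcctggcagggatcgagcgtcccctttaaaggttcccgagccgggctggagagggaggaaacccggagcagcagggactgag
Unc5b, chr10:60831582-60831831, minus strand: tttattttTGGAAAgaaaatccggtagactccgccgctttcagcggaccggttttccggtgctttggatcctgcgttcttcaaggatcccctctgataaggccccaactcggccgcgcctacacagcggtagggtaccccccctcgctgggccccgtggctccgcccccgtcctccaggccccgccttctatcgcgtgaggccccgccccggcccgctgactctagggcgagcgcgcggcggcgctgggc
The Sema3e and Robo1 windows hold 2 matches each, the Unc5b window 1 and the Plxnd1 window 0. The G and C share is 48% for Sema3e, 64.8% for Plxnd1, 56% for Robo1 and 66.8% for Unc5b. Sema3e and Robo1 fell and Unc5b rose, so the core was found in members of both directions.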

How the data were processed

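Whole lung RNA of 3 control and 3 Nfat5(EC)-/- samples, labelled as biotinylated cRNA, was hybridised to single-colour Affymetrix arrays, per the labels' protocols. The deposited table holds log2 levels per probe set, which the authors computed by RMA (submitters' processing notes); its version is unstated there. Of 25428 probe sets, 24705 had 1 gene symbol, 0 several and 723 none; the brighter was kept for a repeated symbol, leaving 24704 genes. The comparison used limma's lmFit and eBayes (version 3.58.1, R 4.3.3), Benjamini-Hochberg adjusted over all genes, at 0.05, and errors of fold changes are moderated SEs. No dim genes were removed. Lengths came from the RefSeq gene table of GRCm38.p6, matched by Entrez number (66 of 66 members). The length trend was a lowess fit with a span of 0.3.

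Members, partner and marker lists and alternatives were chosen with earlier results of these data known. Every member past the threshold was named, with values by array for the 3 largest rises and falls of each family and for markers of vessel types. Outside the members Nfat5, Nrp1, Nrp2, Dcc, Neo1 and up to 4 partners of smallest p in each direction were named. Mbp, Nr2f2, Sftpc and Xist were added after their values were seen. Marker lists beyond those in the text had these counts higher and lower: arterial 1 and 0 of 7, venous 1 and 1 of 5, lymphatic 0 and 2 of 5, alveolar capillary 3 and 1 of 8, pericyte 3 and 2 of 9, smooth muscle 0 and 0 of 7, fibroblast 3 and 1 of 8, mesothelial 1 and 0 of 4, alveolar type 1 1 and 2 of 6, alveolar type 2 1 and 2 of 8, ciliated 2 and 3 of 7, secretory 0 and 0 of 4, macrophage 1 and 2 of 7, T and NK cell 0 and 0 of 6, B cell 1 and 0 of 3, thymus 1 and 1 of 7 and red cell 0 and 0 of 3. Efnb2, Ephb4 and Robo4 are in these lists and among the members. The test was also run on simulated data, with independent noise for each gene and planted changes. That simulation held no array-wide shift, sex difference or length trend, so it is no check on how these affect the calls.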

Additional observations from a re-analysis of the deposited data

How the results depend on the processing

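Of the 31 member calls, 12 held under every setting at a threshold of 0.05, and no value of a called member changed sign. With Xist as a covariate 2827 genes passed, against 6292, with 8 guidance genes higher and 4 lower and 6 partners higher and 8 lower; the Xist level nearly singles out control replicate 1. At a threshold of 0.01 the counts were 2560 genes, 9 and 6 guidance genes, and 5 and 7 partners, and at 0.10 there were 17 guidance genes lower. With the length trend removed 8 partners were lower. Leaving out 1 array in turn gave 2882 to 6155 genes, 9 to 22 guidance genes higher and 6 to 13 lower, and 5 to 13 partners higher and 8 to 17 lower; partners lower numbered 8 without any 1 control, and the other lowest counts came without control replicate 1 or 3. Among calls, 16 were lost without control replicate 1, 15 without control replicate 3, 6 without control replicate 4, 7 without knockout replicate 4 and 2 without knockout replicate 1; the cause was not tested. Filters on dim genes, averaging probe sets, unnamed probe sets, renewed scaling, an intensity trend and array weights left all these counts within 1.5 times, as did protein-coding genes alone, a setting added after seeing the data. Deviations of same-numbered arrays from their group means correlated at 0.06, −0.01 and 0.0038 across genes. Those of differently numbered arrays correlated at −0.11 to 0.11. With 3 arrays per group these values cannot tell whether same-numbered arrays shared more than a number. With the replicate block 6082 genes passed, 21 guidance genes were higher and 13 lower, and Nfat5 kept its call (−2.23, adjusted p = 0.00688). Levels near the lower quartile limit what could be seen for Sema4g, Epha5, Epha6 and Robo3, whose means lay below it in both groups, since the table holds no detection calls.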
